A study of Mus musculus with 18 samples.

Results

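The UDP-glucuronosyltransferase genes of the Ugt2 and Ugt3 families were followed in the livers of newborn mice. The set was fixed by gene symbol and holds 10 of the 31165 genes of the expression table: Ugt2b1, Ugt2b5, Ugt2b34, Ugt2b35, Ugt2b36, Ugt2b37, Ugt2b38, Ugt2a3, Ugt3a1 and Ugt3a2. The mice were C57BL/6J pups injected into the peritoneal cavity on postnatal days 1 and 3. One arm received a mimic of miR-497a-5p, a small regulatory RNA, and the other a scrambled mimic, so the controls had been injected as well. Livers were taken on postnatal day 5, 7 or 14 (P5, P7 and P14), which gave 6 groups of 3 poly(A) RNA libraries, 18 in all. Doses of 10 and 100 mg per kg are named in the protocol without saying which library had which. No label ties a library to a litter, so p-values reflect only how far these livers varied.

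These enzymes sit in the membrane of the endoplasmic reticulum and join a sugar to small fat-soluble molecules, which can then leave in bile or urine. Enzymes of the Ugt2 family take glucuronic acid from UDP-glucuronic acid and act on steroid hormones, bile acids, fatty acids and drugs. Ugt3 enzymes are known to use other donors, among them N-acetylglucosamine, glucose and xylose. Which of these donors the mouse enzymes Ugt3a1 and Ugt3a2 take was not tested. Glucuronidation is known to be weak in the newborn liver and to mature after birth, and the genes are expressed mainly in hepatocytes, kidney and gut.

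The genes lie in 2 clusters (table coordinates, mm10). The 8 Ugt2 genes span 534.4 kb of chromosome 5, from 86889767 to 87424203, and all but Ugt2b35 are on the minus strand. Ugt3a1 and Ugt3a2 span 91.1 kb of chromosome 15, from 9279829 to 9370955, on the plus strand. Coding sequences were compared in pairs over their aligned bases, with gaps left out of the count. Those of the 7 Ugt2b genes were 73.9 to 97.0% identical. Those of Ugt2a3 and each Ugt2b gene were 69.2 to 71.7% identical, and those of any Ugt2 and any Ugt3 gene 60.2 to 66.7%. Ugt2b5 and Ugt2b38 were the closest pair at 97.0%, and Ugt3a1 and Ugt3a2 were 93.3% identical.

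The start regions are shown because the genes changed with age in part together. In addition, near-identical stretches of 30 bases before the start belonged to genes of very different level. RefSeq promoter windows (GRCm38.p6, 250 bases before to 50 after the start) were on hand for 9 of the 10 genes. The letters GTTANNNNTTAAC, a relaxed form of the palindrome known for the hepatocyte factor HNF1, were found on either strand in 8 of those 9, against 62 of all 32851 promoter windows (0.189%), members included. This motif was chosen after the members' promoters had been read, and the genes of a cluster share ancestry, so the 8 matches are not independent. Each line gives 30 bases, 5′ to 3′ on the gene's own strand, with the matched letters in capitals.
Ugt2b34 (chr5:86906989-86907018, minus strand): gtgtacaaGTTACACTTTAACtgactgatt
Ugt2b1 (chr5:86926571-86926600, minus strand): ggttagaaGTTATATGTTAACttcttgatt
Ugt2b35 (chr5:87000782-87000811, plus strand): caactcagGTTATATTTTAACtcgtggatt
Ugt2b36 (chr5:87092598-87092627, minus strand): caattccaGTTATATTTTAACttcttggca
Ugt2b5 (chr5:87140380-87140409, minus strand): caatgcaaGTTATAGTTTAACctctgggct
Ugt2b37 (chr5:87254845-87254874, minus strand): aaatgcaaGTTATAGTTTAACctctgggct
Ugt2b38 (chr5:87424246-87424275, minus strand): aaatgcaaGTTATAGTTTAACctctgggct
Ugt3a1 (chr15:9279691-9279720, plus strand): taggacaaGTTAAAAATTAACtcttcacct
Ugt2a3 (chr5:87337228-87337257, minus strand): gtttaaaaGTTAATAGTTAAtttctttctt

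The Ugt2a3 line shows a match to the same motif without its last letter, GTTANNNNTTAA, which 9 of 9 members and 246 of 32851 windows (0.749%) held. In the 7 Ugt2b windows the first matched base lay between 61 and 89 bases before the start, in Ugt2a3 54 bases and in Ugt3a1 130 bases before it. A second HNF1-type motif, TTAATNATT on either strand, was in 4 of 9 members (Ugt2b5, Ugt2b35, Ugt2b37 and Ugt2b38) and in 1.473% of all windows, and it overlapped none of the matches printed above. The letters TATAAA were in the Ugt3a1 window alone of the 9, and in 13.616% of all windows. A match describes letters only and shows no binding.

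The printed windows of Ugt2b37 and Ugt2b38 are identical, and Ugt2b5 differs from both by 1 substitution, C1A, counted from the first printed base with the base of Ugt2b5 first. The promoter windows of 300 bases were also aligned, with gaps left out of the count. Ugt2b5 matched Ugt2b37 at 247 of 276 aligned bases (89.5%) and Ugt2b38 at 261 of 290 (90.0%). Their transcript levels were far apart. Ugt2b5 had 555 to 859 scaled counts (gene counts that the authors divided by a size factor for each library and rounded) in the 18 livers, Ugt2b37 had 0 to 4 and Ugt2b38 had 0 to 6. Of the 1759 stretches of 100 bases in the Ugt2b5 transcript, 434 also occur in Ugt2b38, 24.67% of them, so counts of these 2 genes depend on how shared reads were assigned. Elsewhere in the set exact shared stretches of 100 bases made up at most 1.06% of a transcript. Read length was not stated, and shorter or mismatched stretches were not counted. How far the other values rest on sequence of the gene's own is therefore not settled.

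**Figure D1:**
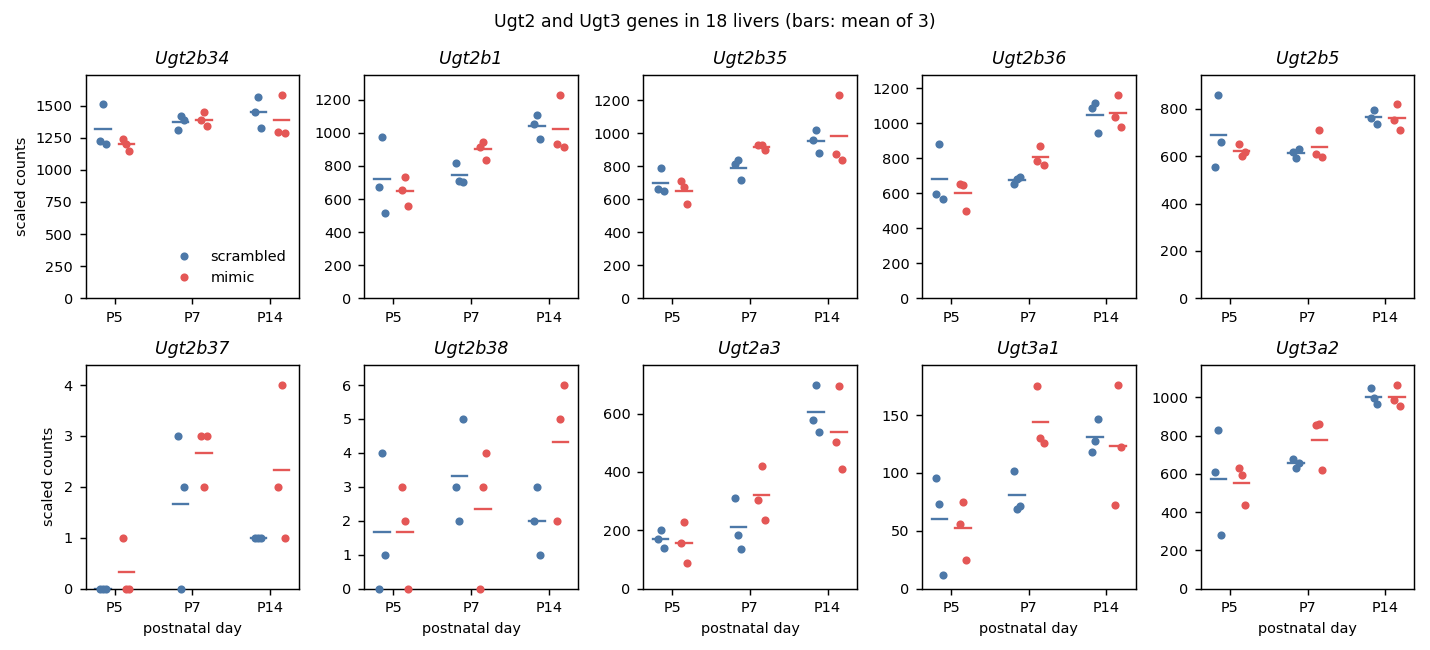
Scaled counts (linear vertical axis from 0, its own scale in each panel) of the 10 genes in each of 18 livers at P5, P7 and P14, with scrambled livers in blue, mimic livers in red and a bar at the mean of 3. Ugt2a3 stood at 88 to 229 at P5 and 411 to 698 at P14, Ugt2b34 stayed between 1149 and 1583, and Ugt2b37 and Ugt2b38 never passed 4 and 6.

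All 16 hepatocyte markers were present on each day. Their summed scaled counts were 19341 to 27927 at P5, 19653 to 24601 at P7 and 22645 to 26217 at P14. Of these 16, 4 were higher at P14 than at P5 and 0 were lower (limma, adjusted p under 0.05). Red cell precursor markers (11 of 12 listed were in the table) summed to 7579 to 10572 at P5, 5347 to 8290 at P7 and 839 to 1887 at P14. Blood cells are known to form in the liver around birth. Markers of gut epithelium summed to 441 to 601 at P5, 502 to 610 at P7 and 795 to 962 at P14. Of the 4 tested, Cdhr5 was higher at P14 than at P5 by 2.78 on the log2 scale (adjusted p = 4.36e-10 by limma), Vil1 was lower, and Sis was at 0 in every P5 and P14 liver. Of 6 Kupffer cell markers 4 were lower at P14 than at P5 (sums of 4109 to 5060 and 2968 to 3868), as were 4 of 6 of sinusoidal endothelium (3709 to 4456 and 3116 to 3461). Of 6 stellate cell markers 3 were higher at P14 than at P5 and 0 lower (sums of 2473 to 3841 and 2786 to 4223). The part of the gut, Kupffer cell, endothelium and stellate cell lists in the age differences was not tested. The hepatocyte and red cell precursor lists were used as covariates below. Kidney markers summed to at most 2 outside P7 and reached 43 in a P7 scrambled liver, and skeletal muscle markers summed to 1455, 22 and 394 in P7 scrambled replicates 1, 2 and 3 against at most 18 in every other liver. P7 scrambled replicates 3 and 2 stood apart in the number of genes with a value above 0, at 30412 and 22132 against 19198 to 20418 in the other 16 libraries. Counts of calls that involve P7, and the member values that lost their call, are therefore also given without both, which leaves replicate 1 as the only scrambled liver of that day. Libraries summed to between 3954405 and 4248257 scaled counts. In such bulk tissue, fewer cells of a type and less RNA per cell cannot be told apart.

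Across all 10 genes levels differed more between genes than between days, through the low values of Ugt2b37, Ugt2b38 and Ugt3a1. Per kb of the longest annotated transcript and averaged over 18 livers, Ugt2b36 had 430 scaled counts per kb, Ugt2b5 had 367, Ugt2b1 at 329, Ugt3a2 at 327 and Ugt2b34 at 313. Ugt2b35 stood at 248, Ugt2a3 at 157 and Ugt3a1 at 43.9 scaled counts per kb. Albumin (Alb), the main plasma protein made by hepatocytes, had 1026 ± 137 (SD, n = 18) on the same scale. Of 14096 tested genes with a known length the highest had 1431.1, and the 99th percentile was 577.1. Alb is among the hepatocyte markers, and whether so narrow a top flattens their sum was not tested. Ugt2b37 and Ugt2b38, at 0.704 and 1.35 scaled counts per kb, fell below the mean of 10 scaled counts required for testing, which left 8 members tested. Which gene comes first depends on the length taken. Per kb of stretches that no other member shares, Ugt2b5 had 515.14 and Ugt2b36 453.29, a scale that assumes that no shared read was given to Ugt2b5. With its 3051-base transcript in place of the 4312-base one, Ugt2b34 was at 443.0 per kb.

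On the longest transcripts the order at P14 was Ugt2b36 at 558 ± 43.9 scaled counts per kb (SD, n = 6 here and below), Ugt3a2 at 431 ± 19.1, Ugt2b5 at 411 ± 21.2, Ugt2b1 at 401 ± 47.2, Ugt2b34 at 329 ± 31.4, Ugt2b35 at 288 ± 43.6, Ugt2a3 at 269 ± 52.9 and Ugt3a1 at 56.7 ± 15.4. Ugt3a1 stood below the gene before it by more than their spread. Ugt2b36 stood above the next gene by more than their spread on this scale, but not per kb of unshared stretches, where it had 588.8 ± 46.3 and Ugt2b5 576.5 ± 29.7. Ugt3a2, Ugt2b5 and Ugt2b1 lay within their spread of each other, as did Ugt2b1 with Ugt2b34, Ugt2b34 with Ugt2b35 and Ugt2b35 with Ugt2a3. At P5 Ugt2b5 led at 354 ± 56.8, beside Ugt2b36 at 339 ± 69.8, and Ugt2a3 was at 77.3 ± 23.2.

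All 8 tested members were higher at P14 than at P5, each past the threshold of 0.05 on the adjusted p (limma on log2(scaled count + 1), Benjamini-Hochberg over 14104 genes). Over all genes tested in that comparison 48.8% passed the threshold and 23.9% passed it as higher. The median log2 difference was 0.68 for the 8 members and 0.01 for all genes tested, and the members ran from 0.17 to 1.83. With the red cell precursor list as a covariate 0 of 8 passed. The 8 differences then ran from 0.47 for Ugt2b34 to 1.04 for Ugt2a3 (adjusted p 0.75 to 0.932 by limma). That list fell with age in parallel, from a mean log2 value of 9.208 at P5 to 5.613 at P14. With it only 1 of all 14104 genes passed, and this fit can hardly tell the list from age. With the hepatocyte list as a covariate 6 of 8 passed, where 49.9% of all genes did. In the mimic livers alone 5 of 8 passed, where 33.4% of all genes did.

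Ugt2a3, the only Ugt2a gene in the set, had the largest estimated difference, which was not separated from that of Ugt3a1. Its scaled counts at P5 were 169, 201 and 140 in the scrambled livers and 155, 229 and 88 in the mimic livers. At P7 they were 312, 182 and 137 in the scrambled and 305, 421 and 235 in the mimic livers, and at P14 578, 698 and 538 in the scrambled and 503, 694 and 411 in the mimic livers. Every P14 liver was above every P5 liver, while P7 livers were spread across both, with P7 mimic replicate 2 above the lowest P14 value. The log2 difference was 1.83 (SE 0.22, adjusted p = 1.29e-06 by limma) from P5 to P14, 0.66 (SE 0.22, adjusted p = 0.0333) from P5 to P7 and 1.17 (SE 0.22, adjusted p = 0.000279) from P7 to P14. The P5 to P7 step missed the threshold in 14 of 33 other settings, among them the fit without P5 mimic replicate 3.

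Among the Ugt2b genes, Ugt2b36, Ugt2b1 and Ugt2b35 had the larger differences and Ugt2b5 and Ugt2b34 the smaller ones. Ugt2b36 had 595, 883 and 565 scaled counts in the P5 scrambled and 651, 645 and 499 in the P5 mimic livers, against 1084, 1117 and 946 in the P14 scrambled and 1035, 1161 and 977 in the P14 mimic livers. All 6 P14 livers lay above all 6 P5 livers and above all 6 P7 livers, which ran from 651 to 871. Its log2 difference from P5 to P14 was 0.74 (SE 0.10, adjusted p = 4.54e-06 by limma), and from P7 to P14 it was 0.51 (SE 0.10, adjusted p = 0.000332).

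Ugt2b1 ran from 517 through a median of 662 to 972 scaled counts at P5, from 703 through 827.5 to 946 at P7 and from 913 through 1008.5 to 1229 at P14. The highest P5 liver, scrambled replicate 2, reached into the P14 range, and the other P5 livers were at most 733. The log2 difference was 0.62 (SE 0.12, adjusted p = 0.00026 by limma) from P5 to P14 and 0.33 (SE 0.12, adjusted p = 0.0265) from P7 to P14. The P7 to P14 step missed the threshold in 10 of 33 other settings, among them the fits without P7 scrambled replicate 2, P7 scrambled replicate 3, P7 mimic replicate 3, P14 scrambled replicate 2 or P14 mimic replicate 2. Without P7 scrambled replicates 2 and 3 together it was 0.26 (adjusted p = 0.194 by limma).

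Ugt2b35, the gene of opposite strand, ran from 570 through 670.5 to 792 scaled counts at P5, from 720 through 870.5 to 931 at P7 and from 838 through 919 to 1234 at P14. The P14 and P5 livers did not overlap. Its log2 difference was 0.34 (SE 0.09, adjusted p = 0.0120 by limma) from P5 to P7 and 0.51 (SE 0.09, adjusted p = 0.000107) from P5 to P14, and the step from P7 to P14 did not pass.

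Ugt2b5 had 555, 859 and 659 scaled counts in the P5 scrambled, 650, 602 and 619 in the P5 mimic, 761, 796 and 738 in the P14 scrambled and 755, 821 and 712 in the P14 mimic livers. At P5 scrambled replicate 2 was above every P14 liver, and the other P5 livers were below all of them. The log2 difference was 0.23 (SE 0.08, adjusted p = 0.0278 by limma) from P5 to P14 and 0.29 (SE 0.08, adjusted p = 0.00788) from P7 to P14, and all P14 livers were above all P7 livers, which ran from 594 to 711. The P7 to P14 call was lost in 5 of 33 other settings: with the hepatocyte, red cell or length covariate, in the mimic livers alone, and without P7 scrambled replicates 2 and 3 (0.28, adjusted p = 0.0534 by limma). Ugt2b34 had 1228, 1514 and 1202 scaled counts in the P5 scrambled, 1240, 1203 and 1149 in the P5 mimic, 1450, 1566 and 1326 in the P14 scrambled and 1294, 1583 and 1284 in the P14 mimic livers. At P7 it ran from 1312 to 1451. Its days overlapped, and its log2 difference of 0.17 from P5 to P14 (SE 0.07, adjusted p = 0.0455 by limma) missed the threshold in 22 of 33 other settings. For Ugt2b5 that difference was lost in 12 of 33.

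Ugt2b37 and Ugt2b38 were too low for a fold. Ugt2b37 had 0, 0 and 0 scaled counts in the P5 scrambled livers, 1, 0 and 0 in the P5 mimic, 3, 0 and 2 in the P7 scrambled, 3, 2 and 3 in the P7 mimic, 1, 1 and 1 in the P14 scrambled and 2, 4 and 1 in the P14 mimic livers. Ugt2b38 ran from 0 to 4 at P5, 0 to 5 at P7 and 1 to 6 at P14. Values this close to 0 allow no statement on age for either gene.

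Of the Ugt3 genes, Ugt3a2 was the abundant one. Ugt3a2 had 609, 831 and 279 scaled counts in the P5 scrambled, 628, 593 and 438 in the P5 mimic, 1049, 998 and 965 in the P14 scrambled and 988, 1064 and 954 in the P14 mimic livers. The P14 livers lay within 954 to 1064 and above all others, P7 livers included, which ran from 618 to 858. Its log2 difference was 0.91 (SE 0.18, adjusted p = 0.000306 by limma) from P5 to P14 and 0.50 (SE 0.18, adjusted p = 0.0258) from P7 to P14. The second value missed the threshold in 7 of 33 other settings, among them the fit without P7 mimic replicate 3 and the one without P7 scrambled replicates 2 and 3 (0.47, adjusted p = 0.126 by limma).

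Ugt3a1 had 96, 73 and 12 scaled counts in the P5 scrambled and 56, 75 and 25 in the P5 mimic livers. At P7 it had 102, 69 and 71 in the scrambled and 175, 130 and 126 in the mimic livers, and at P14 118, 128 and 147 in the scrambled and 72, 176 and 122 in the mimic livers. Livers of the 3 days overlapped, and those of P5 spread widely, with an SD of 57.1% of the mean. The log2 difference was 1.40 (SE 0.38, adjusted p = 0.00445 by limma) from P5 to P14 and 1.20 (SE 0.38, adjusted p = 0.0264) from P5 to P7. The earlier step missed the threshold in 9 of 33 other settings, among them the fits without P5 mimic replicate 3, P7 scrambled replicate 1 or P7 mimic replicate 1, and it did so without P7 scrambled replicates 2 and 3 (adjusted p = 0.0751).

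**Figure D2:**
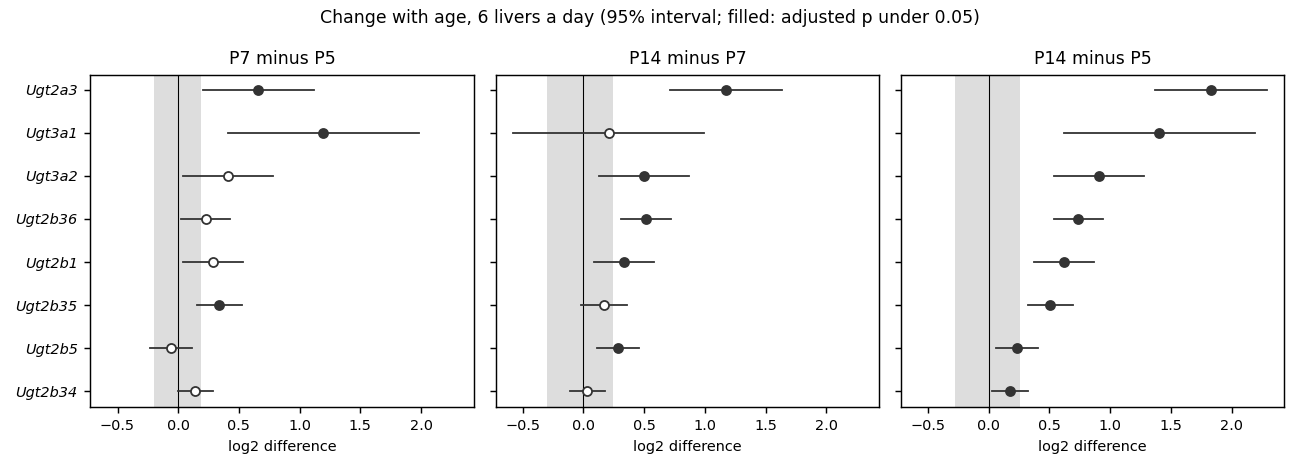
Log2 difference between days (horizontal axis) with its 95% interval for the 8 tested members, 6 livers a day, filled where the limma adjusted p was under 0.05; the grey band holds the 25th to 75th percentile of all 14104 genes tested. All 8 members are filled from P5 to P14, 3 from P5 to P7 and 5 from P7 to P14.

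Counted by step, 3 of 8 members passed from P5 to P7, all higher (Ugt3a1, Ugt2a3 and Ugt2b35), where 26.9% of all genes passed and 13.7% passed as higher. The other 5 had log2 differences from -0.06 for Ugt2b5 to 0.41 for Ugt3a2. From P7 to P14, 5 of 8 passed, all higher, where 50.3% of all genes passed and 24% as higher, and the other 3 had 0.03 to 0.21. Without P7 scrambled replicates 2 and 3 the counts were 2 of 8 from P5 to P7, where 10.4% of all genes passed, and 2 of 8 from P7 to P14, where 33% did. Only Ugt2a3 passed in both steps. Compared liver by liver, all P14 values were above all P5 values for 4 members (Ugt2b35, Ugt2b36, Ugt2a3 and Ugt3a2), against 10.9% of genes tested, and above all P7 values for 3 (Ugt2b36, Ugt2b5 and Ugt3a2), also against 10.9%. No member had all P7 values above all P5 values, where 1.92% of genes did.

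The count from P5 to P7 depended on single livers. It was 7 of 8 without P5 scrambled replicate 2, where 19.3% of all genes passed. It was 1 of 8 without P5 mimic replicate 3, P7 scrambled replicate 1 or P7 mimic replicate 1, where 15.3%, 23.1% and 14.1% of all genes passed. In the scrambled livers alone it was 0 of 8, where 0 of the 14104 genes passed. Libraries of the 2 days also differed in how gene values related to transcript length: the rank correlation across genes was -0.38 to 0.21 at P5, 0.06 to 0.51 at P7 and -0.25 to 0.02 at P14. With that value as a covariate 0 of 8 members passed from P5 to P7, as did 0 of all 14104 genes, and 1 of 8 passed from P7 to P14, where 3303 of all genes did.

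Whether members changed by different amounts was tested within libraries, from the log2 ratio of each pair. That ratio does not depend on how a library was scaled. The scale had a narrow top (99th percentile 577.1 and maximum 1431.1 per kb), and whether this makes changes of high genes too small was not tested. At P5 Ugt3a1 and Ugt2a3, of largest change, had 25.0 and 77.3 per kb. Ugt2b5 and Ugt2b34, of smallest change, had 354 and 291. The order was not strict: Ugt2b35, at 202, changed less than Ugt2b36, Ugt2b1 and Ugt3a2, at 339, 266 and 242. Of 28 pairs, 19 differed in their change from P5 to P14 (two-sided exact permutation of 6 against 6 livers, Benjamini-Hochberg over the 28 pairs, smallest possible p 0.00216). Pairs share genes and are not independent. Ugt2a3 rose more than Ugt2b35 by 1.32 (SE 0.16), than Ugt2b34 by 1.66 (SE 0.19) and than Ugt2b36 by 1.09 (SE 0.16) on the log2 scale, each with p = 0.00216 and adjusted p = 0.00505 (exact permutation), and in 6 of 6 P14 livers the ratio was above every P5 liver. It was ahead of Ugt3a2 by 0.92 (SE 0.22, exact permutation p = 0.00433, adjusted p = 0.00932).

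Ugt2a3 and Ugt3a1 did not differ past the threshold, with a difference of 0.43 (SE 0.40, exact permutation p = 0.307, adjusted p = 0.331). Ugt2b36 rose more than its neighbour Ugt2b5 by 0.51 (SE 0.07) on the log2 scale, with an exact permutation p = 0.00216 and adjusted p = 0.00505. Ugt2b5 and Ugt2b34, the pair with the smallest changes, differed by 0.05 (SE 0.06, exact permutation p = 0.379, adjusted p = 0.379).

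Added up, the 10 genes had 4699 ± 785 scaled counts at P5 (SD, n = 6 livers here and below), 5525 ± 513 at P7 and 6940 ± 673 at P14, 1.48 times the P5 mean at P14. P5 scrambled replicate 2 summed to 6129, just under the lowest P14 liver at 6218, and the other P5 livers were at most 4757. Of the sum per kb, Ugt2a3 made up 4.28 ± 1.02% at P5, 5.82 ± 1.75% at P7 and 9.74 ± 1.14% at P14. Ugt2b5 went from 19.9 ± 2.48% to 15.0 ± 0.66% and Ugt2b34 from 16.4 ± 1.44% to 11.97 ± 0.26% between P5 and P14. Ugt2b36 held 18.8 ± 0.81% at P5 and 20.3 ± 0.75% at P14. The limit given above for changes of high genes applies to these shares and sums as well.

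**Figure D3:**
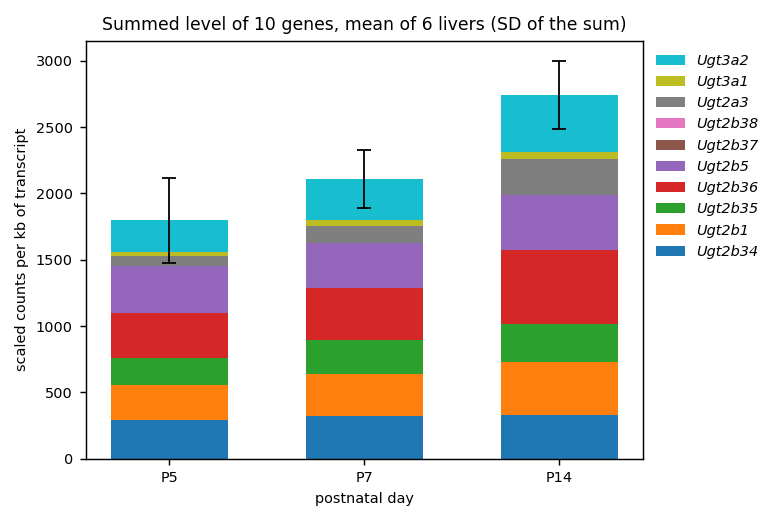
Summed level of the 10 genes in scaled counts per kb of transcript (vertical axis from 0), stacked by gene, as the mean of 6 livers at P5, P7 and P14 with the SD of the sum. The sum was 1796 ± 321 at P5 and 2746 ± 256 at P14, and the grey Ugt2a3 block widened from 4.28 to 9.74% of it.

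Within a day many of the members had their highest or lowest value in the same liver. The share of all genes with an extreme in that liver was not counted, so this may not be particular to the members. Of the 8 tested members, 6 had their highest P5 value in scrambled replicate 2, and the lowest fell in mimic replicate 3 for 4 and scrambled replicate 3 for 3. At P7 mimic replicate 2 was highest for 6, and at P14 mimic replicate 2 was highest for 7 and mimic replicate 3 lowest for 6. The hepatocyte marker sum was also highest of its day in P5 scrambled replicate 2, at 27927, and in P7 mimic replicate 2, at 24601, while at P14 the highest sum, 26217, was in a scrambled liver. Its part in these values was not tested beyond the covariate above.

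The mimic question was whether the injected microRNA changed these transcripts. The mature strand is printed with its seed, bases 2 to 8, in capitals, because the complement of the seed was searched in the members (RefSeq, GRCm38.p6, chromosome 11 from 70234730 to 70234751, plus strand).
mmu-miR-497a-5p: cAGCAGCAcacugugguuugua

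The matching site TGCTGCT was in 0 of the 10 members' longest annotated 3′ UTRs, which were 253 bases long in Ugt2b5 to 2972 bases in Ugt2b34. Of 13190 tested genes with an annotated 3′ UTR, 3231 (24.5%) held it, with a median length of 1174 bases.

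No member passed the adjusted threshold for mimic against scrambled on any day. In limma 0 of 8 passed at P5, where 0% of all genes passed, 0 of 8 at P7, where 0.00709% passed, and 0 of 8 at P14, where 0.0213% passed. At an unadjusted p under 0.05 the counts were again 0 of 8 on each day, against 1.89, 7.61 and 5.41% of all genes. The same held for the effect averaged over days and for the test of a difference between days, each 0 of 8 against 0.00709%. Results of no call do not show that the levels were alike, so intervals are given.

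At P5 the member of smallest p was Ugt2b34, at 1202 to 1514 scaled counts in the scrambled and 1149 to 1240 in the mimic livers. Its log2 difference was -0.13, with a 95% interval from -0.33 to 0.08 (limma adjusted p = 1). Groups overlapped for all 8 members at P5, where 2.89% of genes were higher without overlap, and the log2 differences ran from -0.20 to 0.09. At P14 the smallest p was again that of Ugt2b34, with -0.06 (95% interval -0.27 to 0.14, limma adjusted p = 0.9995), no group was higher without overlap where 4.96% of genes were, and the 8 differences ran from -0.20 to 0.02. Averaged over days Ugt2b34 had -0.06 (95% interval -0.18 to 0.06, limma adjusted p = 0.9998).

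At P7 all 8 members leaned higher in the mimic livers, from 0.02 for Ugt2b34 to 0.83 for Ugt3a1 on the log2 scale, with a median of 0.24 against -0.005 for all genes tested. Ugt2a3 had the smallest p. It was at 312, 182 and 137 scaled counts in the scrambled and 305, 421 and 235 in the mimic livers, which overlap. The log2 difference was 0.65 (95% interval -0.0009 to 1.299, limma adjusted p = 0.656). Without P7 scrambled replicates 2 and 3 it was -0.003, which sets the 3 mimic livers against the single liver left, at 312. That liver, scrambled replicate 1, is also the one with the muscle markers at 1455.

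For 4 members all 3 mimic livers at P7 were above all 3 scrambled livers, against 6.52% of genes tested. Ugt2b1 had 817, 711 and 703 scaled counts in the scrambled and 917, 946 and 838 in the mimic livers. Ugt2b35 had 817, 840 and 720 against 931, 929 and 901, Ugt2b36 had 651, 682 and 692 against 782, 871 and 761, and Ugt3a1 had 102, 69 and 71 against 175, 130 and 126. None passed in limma, with adjusted p from 0.724 for Ugt2b36 to 0.802 for Ugt3a1. Without P7 scrambled replicates 2 and 3 the count in limma was again 0 of 8, from a fit with a lone scrambled liver at P7 that is assumed to vary like the other groups. The P7 scrambled livers were also those with muscle markers, 22 to 1455 scaled counts in sum against 3 to 4 in the mimic livers, and the hepatocyte markers summed to 19653 to 22129 in them and 19865 to 24601 in the mimic livers. With the hepatocyte list as a covariate 0 of 8 passed at P7, as without it, and 0 of all 14104 genes did. A count that was already 0 cannot show the part of this list, and the part of the muscle markers was not tested.

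**Figure D4:**
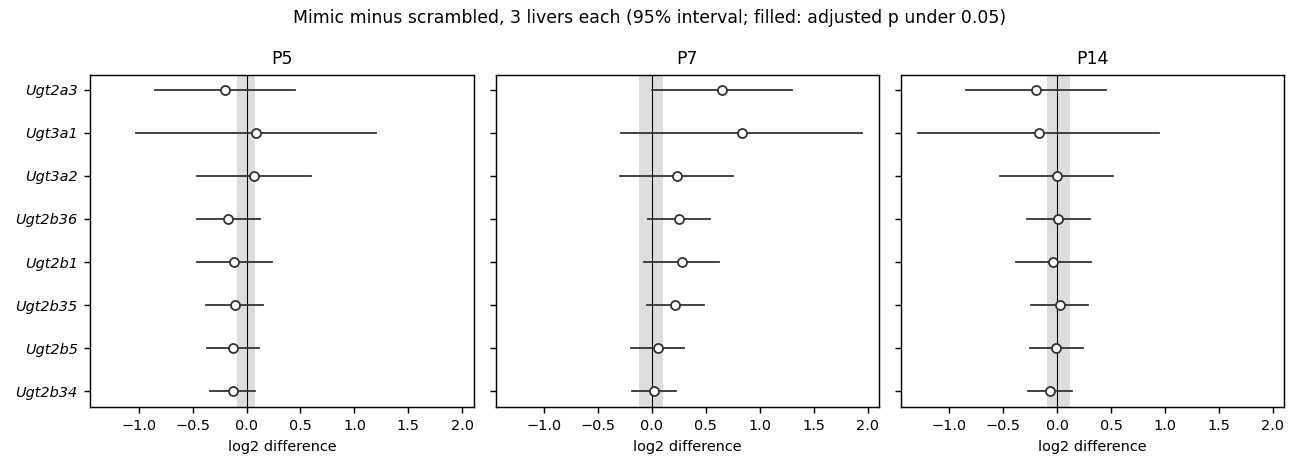
Log2 difference of mimic minus scrambled livers (horizontal axis) with its 95% interval for the 8 tested members at P5, P7 and P14, 3 livers a group, with the grey band at the 25th to 75th percentile of all 14104 genes. No point is filled, every interval includes 0, and the P7 points lie between 0.02 and 0.83.

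The other genes of the pathway were read from a list of 49 covering the supply of UDP-sugars, other glycosyltransferases, glucuronide removal and transport, and regulators of UGT genes. Of these, 41 were tested, and from P5 to P14 26 passed as higher and 7 as lower, where 23.9% of all genes passed as higher and 48.8% in either direction. Their median log2 difference was 0.31 against 0.01 for all genes tested. Of 22 regulators, 18 were higher and 1 lower. Of the 7 genes of sugar donor supply, 3 were higher and 1 lower. Efflux transporters went both ways, 1 higher and 2 lower of 4, and Gusb, the lysosomal enzyme that removes glucuronic acid, was lower. From P5 to P7 20 of 41 were higher and 1 lower, where 13.7% of all genes were higher. From P7 to P14 14 were higher and 8 lower, where 24% of all genes were higher. Ugt1a8, Ugt2a1 and Ugt2a2 had no entry under these symbols. Ugt1a2, Ugt1a5, Ugt1a6a, Ugt1a7c and Ugt1a10 fell below the mean of 10 scaled counts required for testing. Counts of single Ugt1a genes are uncertain because those genes share their last exons.

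The smallest p in the step from P5 to P14 belonged to Slco1a4, an uptake transporter of organic anions, which rose by 3.61 on the log2 scale (SE 0.30, adjusted p = 1.34e-08 by limma). Stat5a and Stat5b, the signal transducers of growth hormone, rose by 1.18 (SE 0.12) and 0.64 (SE 0.08), and Ghr, the growth hormone receptor, by 0.71 (SE 0.08), with limma adjusted p of 1.21e-07, 4.71e-06 and 2.76e-07. Zhx2, a repressor that turns off fetal liver genes after birth, rose by 1.08 (SE 0.15, adjusted p = 8.94e-06 by limma). Slc35d1, which carries UDP-glucuronic acid into the endoplasmic reticulum, rose by 0.45 (SE 0.06, adjusted p = 6.46e-06 by limma). With the red cell list as a covariate none of these 6 passed, and their differences were 1.84 for Slco1a4, 0.60 for Ghr, 0.56 for Zhx2, 0.41 for Slc35d1, 0.39 for Stat5b and 0.11 for Stat5a.

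For the mimic, 0 of 41 passed at P5, P7 or P14 in limma, where 0, 0.00709 and 0.0213% of all genes passed. At an unadjusted p under 0.05 there were 1, 7 and 4 of 41, against 1.89, 7.61 and 5.41% of all genes. The 4 smallest p at P7 were those of Slco1a4 with 1.64, Stat5b with 0.41, Cebpb with -0.42 and Ghr with 0.31 as log2 differences, none under an adjusted p of 0.315 in limma. Against the single liver left without P7 scrambled replicates 2 and 3 these were 0.73, 0.52, -0.62 and 0.29. Cebpb encodes a basic leucine zipper factor of hepatocytes.

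The genes whose values followed a member most closely over the 18 libraries were named by Pearson's r of the log2 values among 9918 other genes with a mean of 100 or more, as a description, since libraries share day and depth. Ugt2b36 went most closely with C4bp (r = 0.982), a complement inhibitor made by hepatocytes, and Selenbp2 (r = 0.979). Ugt2b5 went with Ndfip1 and Sptssa (r = 0.973 each). Ugt2a3 went with Selenoo (r = 0.965) and with Slco1a4 (r = 0.957), the transporter named above.

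Ugt2b1 went with Sqor (r = 0.963), an enzyme of sulfide oxidation, and Inmt (r = 0.96), a methyltransferase. Ugt2b35 went with Dsc2 (r = 0.951) and Reep3 (r = 0.946), and Ugt2b34 with the coagulation gene F13b (r = 0.912). For the Ugt3 genes the closest were Cyp2j5 (r = 0.941) and Mxd4 (r = 0.934) for Ugt3a2, and Sec14l4 (r = 0.934) and Slc2a9 (r = 0.916), a urate transporter, for Ugt3a1. No gene was named for more than 1 member.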

How the data were processed

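Liver poly(A) RNA of 18 C57BL/6J pups was made into stranded libraries, per the labels' protocols. The submitters' processing notes name Trimmomatic 0.39 for the reads, STAR 2.6.1d, Picard 2.21.7, featureCounts 1.6.5, DESeq2 1.26.0 and the build mm10 (GRCm38). How duplicate and multi-mapping reads were treated was not stated there. The deposited table holds whole-number scores. From their values these are counts that the authors divided by a size factor and rounded, and they are named scaled counts. Raw counts and read depth were not used.

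Groups came from the sample titles. Genes with a mean of 10 or more (14104, 45.3%) were tested on log2(value + 1) in R 4.3.3 by limma 3.58.1, fitting 6 group means with a trend of variance on level (12 residual and 6.49 prior degrees of freedom) and adjusting by Benjamini-Hochberg, threshold 0.05. The added 1 makes fold changes of low genes too small. Age contrasts average both injections. The script was tested on simulated data. Transcripts came from GENCODE M21 (31108 IDs with a length), promoters and the microRNA from RefSeq (GRCm38.p6), and promoter windows matched 9 of 10 members by symbol.

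A log2 difference is printed for each member past the threshold in an age step, for the member of smallest p in each mimic comparison, and for up to 6 pathway genes of smallest p by age and 4 by mimic. For each tested member 2 genes of highest r are named, except that 1 of the 2 for Ugt2b34 is not reported here. The members and lists were chosen with earlier results of these data known. Replicate numbers were not taken to pair the livers. Alternatives were another pseudocount, other filters and scalings, no trend, only the libraries compared, either injection alone, covariates, a replicate block and each library left out; leaving out P7 scrambled replicates 2 and 3 together was chosen after seeing the data. Further software was Python 3.11.15 with numpy 2.4.6, pandas 2.3.3, biopython 1.88 and matplotlib 3.10.9.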

Additional observations from a re-analysis of the deposited data

Results flagged for a closer look

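In 30 groups of 6 livers (10 genes on 3 days), 6 groups held a liver far from the others of its day, 5 livers in all, where chance gives about 1 in 20 groups of continuous values. That rate does not hold for the 3 groups of Ugt2b37, whose values are tied small whole numbers. P5 scrambled replicate 2 was highest for Ugt2b34, with 1514 scaled counts against 1240 in the next liver, and for Ugt2b5, with 859 against 659. P7 mimic replicate 2 was highest for Ugt2b5, with 711 against 629. The remaining 3 concern Ugt2b37 near 0: 1 scaled count in P5 mimic replicate 1 against 0 in the others, 0 in P7 scrambled replicate 2 against 2 or more, and 4 in P14 mimic replicate 2 against at most 2. The cause was not tested.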

How the results depend on the processing

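Of 30 named log2 differences recomputed 973 times in all, 872 values kept their direction and their side of the threshold, 99 lost the call and 2 changed sign: Ugt2a3 for the mimic at P7 (-0.003 without P7 scrambled replicates 2 and 3, against a single scrambled liver) and Ugt2b34 for the mimic at P14 (0.0402 after quantile normalization). Neither was called. Counts of members called follow, with the share of all genes called in the same fit in brackets. From P5 to P7 the 3 members called (26.9%) became 6 with the replicate block (25.7%) and 0 with the red cell covariate (5.52%). They became 0 with the length covariate (0%), 0 in the scrambled livers (0%) and 1 to 7 without single libraries (14.1 to 36%). From P7 to P14 the 5 called (50.3%) became 2 with the hepatocyte covariate (29.7%) and 0 with the red cell covariate (0.00709%). They became 1 with the length covariate (23.4%), 1 in the mimic livers (29.5%) and 3 to 5 without single libraries (44.3 to 52.6%). From P5 to P14 the 8 called (48.8%) became 0 with the red cell covariate (0.00709%) and 5 in the mimic livers (33.4%). Without single libraries they became 6 to 8 (44.3 to 48.8%). The cause was not tested. The counts for the mimic stayed at 0 under every alternative run, the summed level at 1.42 to 1.57 times P5, and the pairs that differed at 14 to 22 of 28. Same-numbered mimic and scrambled livers of a day correlated at -0.23 to 0.24 in their deviations from the group means. With 3 livers a group this does not settle whether a number stands for a shared litter or batch. edgeR and DESeq2 were not run, since the table holds no raw counts.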
